A study of Mus musculus with 8 samples.

Results

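The splicing factors and heterogeneous nuclear ribonucleoproteins (hnRNPs) on the array comprised 127 probes carrying 76 gene symbols, of 25697 probes carrying 18120 symbols. They were taken by symbol alone, as every probe named for a serine/arginine-rich (SR) protein (Sfrs), a small nuclear ribonucleoprotein (snRNP) component (Snrp), a subunit of SF3a or SF3b, an hnRNP (Hnrp), a U2AF relative, a pre-mRNA processing factor (Prpf) or a like-Sm protein (Lsm). The symbols are those of the array's design, and the older ones keep their form here (Sfrs5 for Srsf5, Hnrpdl for Hnrnpdl). Of the 127 probes, 98 (62 symbols) were detected in both groups, that is, with a detection p-value under 0.01 against the negative control beads on at least 1 array of each, and 92 were detected on all 8 arrays.

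The arrays measured RNA from STHdh striatal cells, a conditionally immortalized neuronal progenitor line derived from embryonic mouse striatum and wild-type for huntingtin (STHdh Q7). In the Bcl11b group, 4 sets of cells were transiently transfected with pcDNA3.1 holding the cDNA of the beta isoform of mouse Bcl11b, a zinc finger transcription factor enriched in the striatum. The 4 control sets, called wild-type in the labels, received the empty pcDNA3.1 plasmid (mock). RNA was taken 2 days after transfection and hybridized to Illumina MouseRef-8 v2 arrays, 1 per set. The results are those of 1 immortalized line, of which only a share of cells takes up the plasmid. The Bcl11b probe read here (ILMN_2611022) was detected on none of the 8 arrays. The study assessed transfection in duplicate sets of cells, by GFP-positive cells and by qPCR of Bcl11b mRNA. Each comparison below asks whether RNA for the splicing machinery was higher or lower with Bcl11b than with the empty plasmid. In RNA from whole cultures, a smaller number of cells expressing a gene and a smaller amount of RNA per cell cannot be told apart.

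Introns are removed from pre-mRNA by the spliceosome, which assembles on each intron from the U1, U2, U4, U5 and U6 snRNPs. Each of these particles holds a small RNA in a ring of Sm proteins, or of LSm proteins for U6, together with proteins of its own. SR proteins bind exonic enhancers and mostly promote exon inclusion, whereas hnRNPs coat nascent RNA and often oppose it, so that the balance of both groups sets many alternative splicing choices, of which neurons make particularly many.

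Promoters are shown for 5 of the Sm and LSm genes whose probes moved together from array to array, and for the 2 hnRNP genes whose groups did not overlap. Each sequence is the 200 bases before the annotated start, 5′ to 3′ on the strand of the gene, from RefSeq on GRCm38.p6, with every match to 1 of 6 motifs in capitals.
Snrpd2, chr7:19149638-19149837, plus strand: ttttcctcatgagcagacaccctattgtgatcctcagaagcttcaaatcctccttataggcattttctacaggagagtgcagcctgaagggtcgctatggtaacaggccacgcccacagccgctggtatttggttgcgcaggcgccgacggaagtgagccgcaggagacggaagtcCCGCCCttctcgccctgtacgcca
Snrpd3, chr10:75517842-75518041, plus strand: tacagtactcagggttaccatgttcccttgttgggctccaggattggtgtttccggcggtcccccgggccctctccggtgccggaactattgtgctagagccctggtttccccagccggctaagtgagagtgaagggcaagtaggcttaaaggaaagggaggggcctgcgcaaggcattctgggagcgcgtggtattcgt
Snrpg, chr6:86371340-86371539, plus strand: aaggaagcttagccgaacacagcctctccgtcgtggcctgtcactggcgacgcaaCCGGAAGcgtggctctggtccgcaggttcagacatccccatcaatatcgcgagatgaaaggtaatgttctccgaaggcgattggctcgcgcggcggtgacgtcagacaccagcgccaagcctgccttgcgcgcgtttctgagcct
Lsm3, chr6:91515835-91516034, plus strand: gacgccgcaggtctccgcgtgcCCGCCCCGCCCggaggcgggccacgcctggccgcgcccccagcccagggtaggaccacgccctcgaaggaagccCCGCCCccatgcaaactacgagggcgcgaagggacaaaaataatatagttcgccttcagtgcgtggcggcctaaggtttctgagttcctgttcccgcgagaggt
Lsm5, chr6:56704700-56704899, minus strand: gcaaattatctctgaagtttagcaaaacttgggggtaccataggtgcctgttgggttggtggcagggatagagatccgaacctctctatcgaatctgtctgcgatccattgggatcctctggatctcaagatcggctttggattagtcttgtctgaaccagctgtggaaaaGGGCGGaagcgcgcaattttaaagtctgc
Hnrpdl (RefSeq symbol Hnrnpdl), chr5:100039223-100039422, minus strand: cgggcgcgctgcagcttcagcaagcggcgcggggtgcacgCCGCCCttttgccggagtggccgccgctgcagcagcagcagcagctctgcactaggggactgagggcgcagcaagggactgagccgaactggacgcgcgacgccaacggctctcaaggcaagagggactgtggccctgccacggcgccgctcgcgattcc
Hnrph3 (RefSeq symbol Hnrnph3), chr10:63023850-63024049, minus strand: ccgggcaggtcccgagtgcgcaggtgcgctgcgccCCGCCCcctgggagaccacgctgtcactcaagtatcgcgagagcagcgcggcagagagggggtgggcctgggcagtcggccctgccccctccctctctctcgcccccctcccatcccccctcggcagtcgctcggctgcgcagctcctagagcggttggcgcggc
The motifs were an ETS core, an NRF1 core, an E-box, a YY1 core, a GC box and a TATA box, spelled out with their counts and each read on both strands, so that some matches appear as the reverse complement. None of the 6 contains another, and 2 of the 3 GC boxes of Lsm3 overlapped by 1 base. The 200 bases of Snrpd3 held none of these letters.

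RefSeq held 75 of the 76 symbols and promoter windows, from 250 bases before to 50 after a start, for 66 of them. Genes with several annotated starts had several windows, and a gene was counted if any of them held the motif. Such genes thus had more room for a match. The ETS core (CCGGAAG) was found for 20 of these 66 genes (30.3%), against 14.1% of 13425 genes on the array, and the NRF1 core (GCATGCGC) for 7 (10.6%), against 4.27%. The GC box (GGGCGG) was found for 48 (72.7%), against 54.2%, and the E-box (CACGTG) for 10 (15.2%), against 9.77%. The YY1 core (AAGATGG) was found for 4 genes (6.06%, against 7.36%) and the TATA box (TATAAA) for 7 (10.6%, against 14.1%). Among the 11 Sm and LSm ring genes with a window, 3 had the ETS core (27.3%), 2 the NRF1 core (18.2%), 8 the GC box (72.7%) and none the E-box. These matches describe the letters only.

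Values below are log2 signals after quantile normalization, and differences are Bcl11b minus mock on that scale. The median deposited signal was 31.6 to 53.9 on the mock arrays and 20.1 to 30.2 on the Bcl11b arrays, and 10121 to 10784 probes were detected per array. Of the cell type markers, 3 of 5 neural progenitor genes (Nes, Sox2 and Vim, but not Msi1 or Pax6) were detected. So were 4 of 6 mesenchymal genes (Col1a1, Col3a1, Pdgfra and Acta2), but only Foxp1 of 10 medium spiny neuron genes. Map2 and Syn1 were detected of 6 pan-neuronal genes, Slc1a3 of 4 astrocyte genes, and no gene of the oligodendrocyte (3 genes), microglial (4) or endothelial (3) lists. The summed normalized signal of the medium spiny neuron list was 606 to 991 on the mock and 922 to 1199 on the Bcl11b arrays, and that of the pan-neuronal list 978 to 1325 and 1254 to 1497. The first sum mainly follows Foxp1, its only detected gene, which differed by 0.48 (limma p adjusted over all probes = 0.530). The second mainly follows Map2 (0.21, limma adjusted p = 0.683) and Syn1 (0.87, limma adjusted p = 0.521). The mesenchymal sum was 13932 to 16766 and 14537 to 15142, and the progenitor sum 23146 to 27009 and 19431 to 27230. These sums mainly follow the brightest gene of each list, Acta2 (difference -0.04) and Vim (-0.24). Of the other detected mesenchymal genes, Pdgfra differed by -0.70 (limma adjusted p = 0.00296). Col3a1 differed by -0.87 (limma adjusted p = 0.572) and Col1a1 by 0.22 (0.894). The endothelial sum, near the background, reached 41.1 at most on the mock arrays and 86.4 to 90.5 on the Bcl11b arrays. The part of these sums in the results was not tested. For most Sm and LSm ring genes Bcl11b replicate 4 stood apart from the other Bcl11b arrays, as described with those proteins, so counts are given with and without it. Over all 98 detected splicing probes it was the lowest of the Bcl11b arrays in 34.7%, against 30% of all detected probes. It was the highest in 51%, against 49.8%.

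No splicing probe passed an adjusted p of 0.10 (limma with Benjamini-Hochberg adjustment over all 25697 probes), where 0.981% of all probes did. The smallest adjusted p was 0.116, for Hnrpdl, and 11 of the 127 probes had an unadjusted p under 0.05. Of the 98 detected in both groups 9 did, against 1845 of all 10918 probes so detected. With a limit on the size of the difference added (unadjusted p under 0.05 and at least 0.32 on the log2 scale, called the unadjusted threshold here), 10 of 127 probes (7.87%) passed, against 9.02% of all probes, but 2 of them, for Hnrpd and Sfrs8, were detected on no array. Of the 98 detected probes, 8 passed (8.16%), against 13.8% of all 10918 probes detected in both groups. Among them, 5 were higher in Bcl11b cells (background 3.88%) and 3 were lower (background 9.87%). With all 8 arrays the share called was thus below that of all detected probes in total and among lower probes. Among higher probes, with only 5 calls, it was near the background. No difference in share was tested. In 5 of the 98 (5.1%) the groups did not overlap, against 9.37% of detected probes.

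Without Bcl11b replicate 4 the count was 12 higher (background 7.57%) and 3 lower (background 11%), and Hnrpdl reached the adjusted limit of 0.10 (limma adjusted p = 0.0988), as 0.969% of all probes did. Over all 127 splicing probes 16 passed the unadjusted threshold there (background 10.8%). When the arrays were scaled by their medians and not by quantiles, 14 detected splicing probes were higher and 1 was lower, against 7.56% and 6.43% of all detected probes. Without mock replicate 2 the count was 9 higher and 1 lower (background 7.14% and 13%). In a fit with a block for the replicate number it was 11 and 2 (background 5.31% and 8.12%). The split between higher and lower splicing probes therefore depended on the scaling, on the fit and on the arrays kept. Fold changes were small in general, as 63 of the 98 were under 0.32 in size, but only 7 had a 95% interval wholly within 0.32 of 0, so most probes were not shown to be unchanged. The p-values rest on 4 sets of transfected cells per group and measure the spread between these sets.

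**Figure D1:**
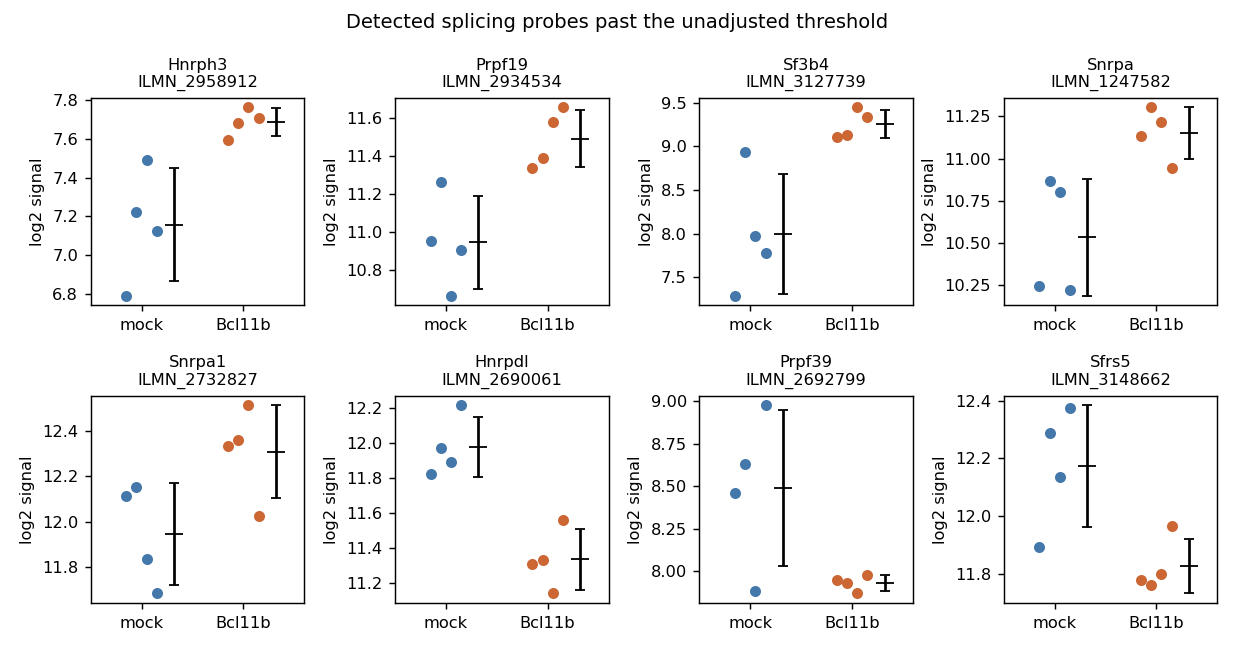
Log2 signal of the 8 detected splicing probes past the unadjusted threshold on each mock (blue) and Bcl11b (orange) array, with the group mean and SD (bars, n = 4 arrays); the vertical axes differ between panels and do not start at 0. The groups do not overlap for Hnrph3, Prpf19, Sf3b4, Snrpa and Hnrpdl, and they overlap for Snrpa1, Prpf39 and Sfrs5.

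SR proteins bind exonic splicing enhancers through RNA recognition motifs and recruit the spliceosome through their arginine- and serine-rich tails. The 15 detected probes were taken by the symbol Sfrs and include Sfrs14 and Sfrs16, which RefSeq names Sugp2 and Clasrp and not as Srsf genes. Of the 15, 1 was lower (background 9.87%) and none was higher (background 3.88%) at the unadjusted threshold. The lower one was Sfrs5 (SRp40, ILMN_3148662). Its log2 signals were 11.89, 12.29, 12.13 and 12.38 on the mock arrays and 11.78, 11.76, 11.80 and 11.96 on the Bcl11b arrays. Bcl11b replicate 4 lay above mock replicate 1, so the groups overlapped in that pair of arrays. The difference was -0.35 (SE 0.11, adjusted p = 0.347 from limma), and it missed the unadjusted threshold without mock replicate 2 (-0.31) or 4 (-0.28) or Bcl11b replicate 2 (-0.32) and when arrays were scaled by their medians (-0.18). The second Sfrs5 probe (ILMN_2772274) had nearly the same difference, -0.36, with a wider spread (SE 0.24).

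The brightest SR probe, for Sfrs2 (SC35, ILMN_2636335), read 13.84, 14.01, 13.65 and 13.94 on the mock arrays and 13.72, 13.68, 13.73 and 14.07 on the Bcl11b arrays. Its difference was -0.06 (SE 0.12, adjusted p = 1 from limma), and it turned to 0.45 when arrays were scaled by their medians. The other Sfrs2 probes differed by 0.13 (ILMN_1235653) and 0.03 (ILMN_2806029). Sfrs3 (SRp20, ILMN_2733398), an SR protein that also takes part in mRNA export, read 10.22, 10.26, 10.29 and 10.31 on the mock arrays and 10.03, 9.98, 9.81 and 10.32 on the Bcl11b arrays. The first 3 Bcl11b arrays lay below every mock array and the fourth above every one. Its difference was -0.24 (SE 0.11) on all arrays and -0.33 (SE 0.06, adjusted p = 0.117 from limma) without Bcl11b replicate 4, where it passed the unadjusted threshold. The second Sfrs3 probe (ILMN_2733399) differed by -0.09 and, without that array, by -0.17, and did not pass. Over the 15 SR probes, 11 differences were below 0 and 4 above, with a median of -0.09, which turned to 0.10 when arrays were scaled by their medians. The probes of Sfrs1 (ASF/SF2), the founding member of the family, differed by -0.16 (ILMN_2591814) and -0.01 (ILMN_3142235). The differences of Sfrs4, Sfrs6, Sfrs7 and Sfrs9 lay between -0.15 and 0.01, all within the spread of the arrays.

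Of the 26 detected hnRNP probes, 1 was lower (background 9.87%) and 1 was higher (background 3.88%) at the unadjusted threshold. The lower one was Hnrpdl (ILMN_2690061), a relative of the AU-rich element binding protein hnRNP D. It read 11.83, 11.97, 11.89 and 12.22 on the mock arrays and 11.31, 11.33, 11.14 and 11.56 on the Bcl11b arrays. Its highest Bcl11b array was below its lowest mock array. The means were 11.98 ± 0.17 and 11.34 ± 0.17 (SD, n = 4 arrays each), a difference of -0.64 (SE 0.12) or 1.56-fold with a limma adjusted p of 0.116. Whichever array was left out, the difference stayed between -0.72 and -0.57. A second Hnrpdl probe (ILMN_2903440) differed by -0.07 (SE 0.14), with Bcl11b replicate 4 at 11.26 and the other 7 arrays between 11.63 and 11.83.

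The higher hnRNP was Hnrph3 (ILMN_2958912), a member of the hnRNP H family that binds runs of guanines. It read 6.79, 7.22, 7.49 and 7.12 on the mock arrays and 7.59, 7.68, 7.76 and 7.71 on the Bcl11b arrays. Every Bcl11b array was above every mock array, and the Bcl11b arrays were closer to each other. The difference was 0.53 (SE 0.14, adjusted p = 0.264 from limma). The 5 probes of Hnrph1, the best known member of the same family, differed by -0.33 to -0.02, and none passed the threshold.

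The brightest hnRNP probe, for Hnrpab (ILMN_2612423), read 13.82, 14.43, 14.25 and 14.01 on the mock and 14.20, 14.27, 14.18 and 14.42 on the Bcl11b arrays. The Bcl11b arrays lay within the range of the mock arrays, and the difference was 0.14 (SE 0.14, adjusted p = 0.812 from limma), but it was 0.80 and past the unadjusted threshold when arrays were scaled by their medians. None of the 6 detected probes of Hnrpa1, Hnrpa2b1 and Hnrpc, the core hnRNPs that package nascent transcripts, passed the threshold with all arrays. The Hnrpc probes differed by -0.06 (ILMN_1235470, SE 0.07) and -0.08 (ILMN_2511051, SE 0.12). Those of Hnrpa2b1 differed by 0.02 (ILMN_2615855, SE 0.16) and -0.53 (ILMN_2771074, SE 0.42). Those of Hnrpa1 differed by 0.07 (ILMN_3096701, SE 0.17) and 0.35 (ILMN_3024068, SE 0.19), and the latter passed the unadjusted threshold without Bcl11b replicate 4, at 0.47 (limma adjusted p = 0.394). The 3 probes of Hnrpm, a splicing regulator, lay between -0.25 and -0.02, and the lowest of them (ILMN_2921095, limma adjusted p = 0.448) was under 0.32 in size. Hnrpu (ILMN_1259775), a scaffold protein of nuclear RNA and chromatin, differed by -0.62 (SE 0.31), and the 3 detected probes of its relative Hnrpul1 by 0.61 to 0.69 (SE 0.37 to 0.45), none past the threshold. Over the 26 probes the median was -0.02, with 10 differences above 0 and 16 below, and it became 0.17 when arrays were scaled by their medians.

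The U2AF and SF3 proteins define the 3′ end of the intron, U2AF by binding the polypyrimidine tract and the last bases of the intron, SF3a and SF3b as parts of the U2 snRNP that hold the branch site. Of their 11 detected probes 1, for Sf3b4 (SAP49, ILMN_3127739), passed the unadjusted threshold, against 13.8% of all detected probes. It read 7.29, 8.94, 7.98 and 7.78 on the mock arrays and 9.11, 9.13, 9.45 and 9.34 on the Bcl11b arrays. Every Bcl11b array was above every mock array, mock replicate 2 coming closest. The means were 7.99 ± 0.69 and 9.26 ± 0.16 (SD, n = 4 arrays each), and the difference of 1.26 (SE 0.34, 2.40-fold) was the largest in size of all 98 detected splicing probes, with a limma adjusted p of 0.261. Without mock replicate 2 it was 1.59 (limma adjusted p = 0.0445).

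The other Sf3b4 probe (ILMN_3051392) read 8.57, 8.14, 8.14 and 8.02 on the mock and 8.02, 8.05, 7.87 and 8.03 on the Bcl11b arrays, a difference of -0.23 (SE 0.12). The probes thus differed in direction, and the deposited table does not say which part of the transcript each one reads. The remaining SF3 probes were within the spread of the arrays. Sf3b2 (ILMN_1239645), the brightest, read 12.62, 13.22, 13.01 and 13.38 on the mock and 12.92, 12.97, 12.76 and 13.17 on the Bcl11b arrays. Its difference of -0.10 (SE 0.18) turned to 0.20 when arrays were scaled by their medians. Sf3a1, Sf3a2 and Sf3a3, the 3 subunits of SF3a, differed by -0.17, 0.79 and -0.09, with SEs of 0.14, 0.49 and 0.07. Sf3b5, the smallest SF3b subunit, differed by 0.37 (SE 0.43), with 12.95, 12.99 and 12.85 on the first 3 Bcl11b arrays and 11.53 on the fourth.

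U2af2, which encodes the large U2AF subunit, differed by 0.55 (ILMN_2496310, SE 0.27, adjusted p = 0.599 from limma) and did not pass the threshold. It read 10.54, 10.11, 9.56 and 9.49 on the mock and 10.42, 10.62, 10.74 and 10.10 on the Bcl11b arrays. U2af1-rs2 (ILMN_2420366), a relative of the small subunit that acts on minor introns, read 10.80, 10.08, 10.48 and 9.93 on the mock and 10.58, 10.56, 10.59 and 10.11 on the Bcl11b arrays. Its difference was 0.14 (SE 0.22), and Bcl11b replicate 4 was again the lowest of the Bcl11b arrays.

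Of the proteins particular to single snRNPs, Snrpa (the A protein of U1), which binds a stem loop of U1 RNA, and Snrpa1 (the A′ protein of U2) were higher at the unadjusted threshold. Snrpa (ILMN_1247582) read 10.25, 10.86, 10.80 and 10.22 on the mock arrays and 11.13, 11.30, 11.22 and 10.94 on the Bcl11b arrays. All Bcl11b arrays lay above all mock arrays. The difference was 0.61 (SE 0.18, 1.53-fold, adjusted p = 0.309 from limma). A second Snrpa probe (ILMN_2667509) read 11.90, 11.18, 11.62 and 11.27 on the mock and 11.61, 11.47, 11.41 and 10.88 on the Bcl11b arrays. It differed by -0.15 (SE 0.22), opposite to the first, and by 0.00 without Bcl11b replicate 4.

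Snrpa1 (ILMN_2732827) read 12.11, 12.15, 11.83 and 11.68 on the mock and 12.33, 12.36, 12.52 and 12.02 on the Bcl11b arrays. Bcl11b replicate 4 lay below mock replicates 1 and 2, and the difference was 0.36 (SE 0.15, adjusted p = 0.473 from limma). It missed the unadjusted threshold without mock replicate 3 (0.33) or 4 (0.28), or without Bcl11b replicate 1 (0.35), 2 (0.34) or 3 (0.29), and also, at the same difference of 0.36, with the detection filter and with limma-trend. Snrp70, the large U1 protein that SR proteins contact, differed by 0.15 (SE 0.11), and Snrp1c, the U1-C protein, by 0.35 (SE 0.56), with 9.93, 9.88 and 9.60 on the first 3 Bcl11b arrays and 7.88 on the fourth.

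The proteins of the Sm ring (Snrpb, Snrpd1, Snrpd2, Snrpd3, Snrpe, Snrpg and the neuronal Snrpn) and of the LSm rings (Lsm1 to Lsm8) were set apart after their values had been seen, and are described without a test. They made up 21 probes, 17 of them detected, for 13 symbols. Their differences were mostly above 0, 15 of 17, with a median of 0.39 against -0.01 for all detected probes, but none passed the unadjusted threshold. The spread between arrays of a group was wide, with a median pooled SD of 0.57 against 0.28 for all detected probes.

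Snrpd2 (ILMN_2612635) read 12.40, 11.06, 12.44 and 11.18 on the mock arrays and 13.19, 13.02, 13.01 and 10.77 on the Bcl11b arrays. Snrpg (ILMN_2975640) read 11.67, 10.44, 11.13 and 10.21 on the mock and 12.16, 12.15, 12.09 and 10.29 on the Bcl11b arrays. Lsm7 (ILMN_1233901) read 12.31, 11.47, 12.07 and 11.15 on the mock and 13.08, 13.12, 12.92 and 10.94 on the Bcl11b arrays. In each of these genes mock replicates 2 and 4 and Bcl11b replicate 4 were low, and the other 3 Bcl11b arrays were above every mock array. Lsm3 (ILMN_2837865), at 11.68, 10.56, 11.40 and 10.50 on the mock and 11.90, 11.82, 11.83 and 10.17 on the Bcl11b arrays, had the same order. Snrpd3 (ILMN_1244776), the brightest snRNP probe, read 13.51, 12.90, 13.41 and 12.70 on the mock and 13.78, 13.74, 13.64 and 12.65 on the Bcl11b arrays. Lsm4 (ILMN_2903511), the brightest LSm probe, read 13.45, 12.69, 13.29 and 12.49 on the mock and 13.32, 13.31, 13.42 and 12.51 on the Bcl11b arrays. Here the first 3 Bcl11b arrays did not clear the mock arrays, and the difference was 0.16 (SE 0.30), with 0.33 (SE 0.32) for Snrpd3.

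**Figure D2:**
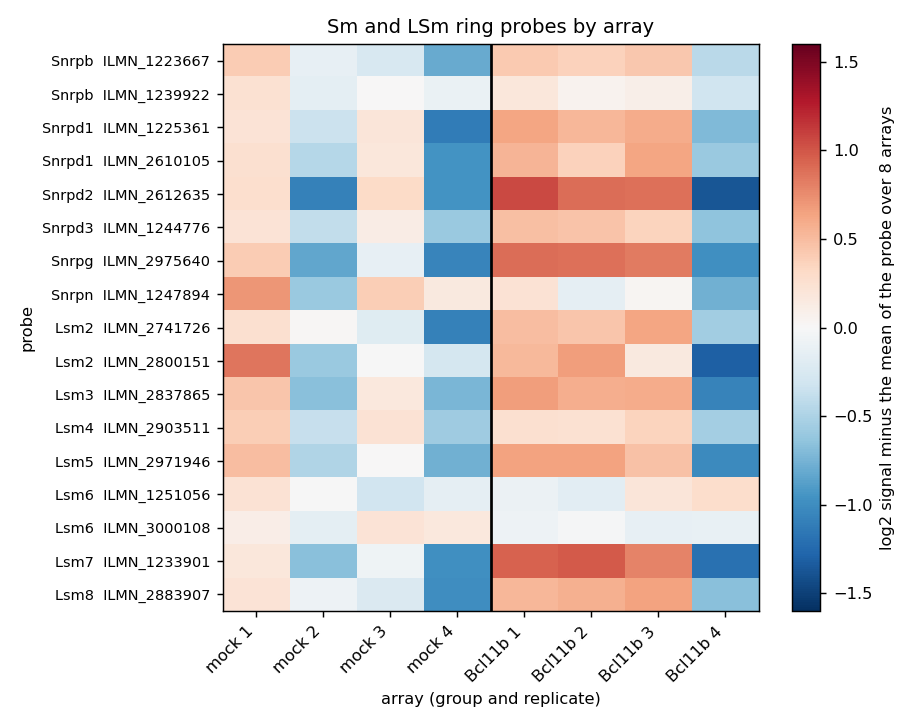
Log2 signal of the 17 detected Sm and LSm ring probes on each array, as the difference from the mean of the probe over the 8 arrays (red above, blue below); the line separates the mock from the Bcl11b arrays. Most probes are low on mock replicates 2 and 4 and on Bcl11b replicate 4 and high on Bcl11b replicates 1 to 3, and the Lsm6 probes are among the exceptions.

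Bcl11b replicate 4 was the lowest of the Bcl11b arrays in 15 of the 17 ring probes (88.2%), against 30% of all detected probes, and the lowest of all 8 arrays in 8 (47.1%), against 16.6%. Mock replicates 2 and 4 both lay below mock replicates 1 and 3 in 12 (70.6%), against 23.5%. The other 3 Bcl11b arrays lay above all mock arrays in 9 (52.9%), against 9.55%. The exceptions included Lsm6 (ILMN_3000108), at 11.79, 11.53, 11.90 and 11.85 on the mock and 11.59, 11.66, 11.55 and 11.56 on the Bcl11b arrays. The order of the arrays was already there before normalization, where the ring median exceeded the median of all detected probes by 2.49, 1.67, 2.34 and 1.42 on the mock arrays and by 3.01, 2.91, 2.94 and 1.40 on the Bcl11b arrays, as log2 signals.

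Without Bcl11b replicate 4 the median ring difference was 0.76, and 5 of the 17 probes were higher at the unadjusted threshold (background 7.57%). These were Snrpd2 by 1.30, Lsm7 by 1.29, Snrpg by 1.27, Lsm8 by 0.85 and Snrpd3 by 0.59, with adjusted p-values from limma of 0.320, 0.208, 0.279, 0.344 and 0.388. Lsm12, an LSm protein outside the rings, was higher there as well, by 0.94 (adjusted p = 0.322 from limma). With all 8 arrays the same ring probes differed by 0.73 (Snrpd2, SE 0.67), 0.76 (Lsm7, SE 0.57), 0.81 (Snrpg, SE 0.55), 0.54 (Lsm8, SE 0.39) and 0.33 (Snrpd3, SE 0.32). With all 8 arrays kept, 5 of the 17 were higher in a fit with a block for the replicate number (background 5.31%) and 7 in a fit that weights each array by its quality (background 8.88%). The number of ring probes past the unadjusted threshold thus depended on Bcl11b replicate 4 and on the fit.

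Sets of genes for complex I and for the ribosome, chosen after the values had been seen, had the same order of arrays, and the SR and hnRNP genes had another. The median log2 signal of the ring probes was 11.79, 11.06, 11.60 and 10.77 on the mock and 12.16, 12.09, 12.09 and 10.77 on the Bcl11b arrays. For 38 detected probes of complex I subunits (Nduf genes, respiratory chain) it was 11.39, 10.75, 10.99 and 10.20 on the mock and 11.75, 11.67, 11.84 and 10.35 on the Bcl11b arrays. For 72 detected probes of cytosolic ribosomal proteins (Rpl and Rps) it was 13.35, 12.77, 13.30 and 12.62 on the mock and 13.76, 13.74, 13.78 and 12.48 on the Bcl11b arrays. All 3 sets were low on mock replicates 2 and 4 and on Bcl11b replicate 4. Without Bcl11b replicate 4, 23 of the 38 Nduf probes and 25 of the 72 ribosomal protein probes were higher at the unadjusted threshold (background 7.57%), and 0 and 1 were lower (background 11%). With all arrays none of either set was higher (background 3.88%), and 1 Nduf and 2 ribosomal protein probes were lower (background 9.87%). The SR median, which on each array was the value of the Sfrs5 probe ILMN_3148662, ran the other way, at 11.89, 12.29, 12.13 and 12.38 on the mock and 11.78, 11.76, 11.80 and 11.96 on the Bcl11b arrays. Bcl11b replicate 4 was the highest of the Bcl11b arrays in 12 of 15 SR probes (80%) and in 19 of 26 hnRNP probes (73.1%), against 49.8% of all detected probes. What sets these arrays apart was not tested, and the labels give them no separate condition.

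**Figure D3:**
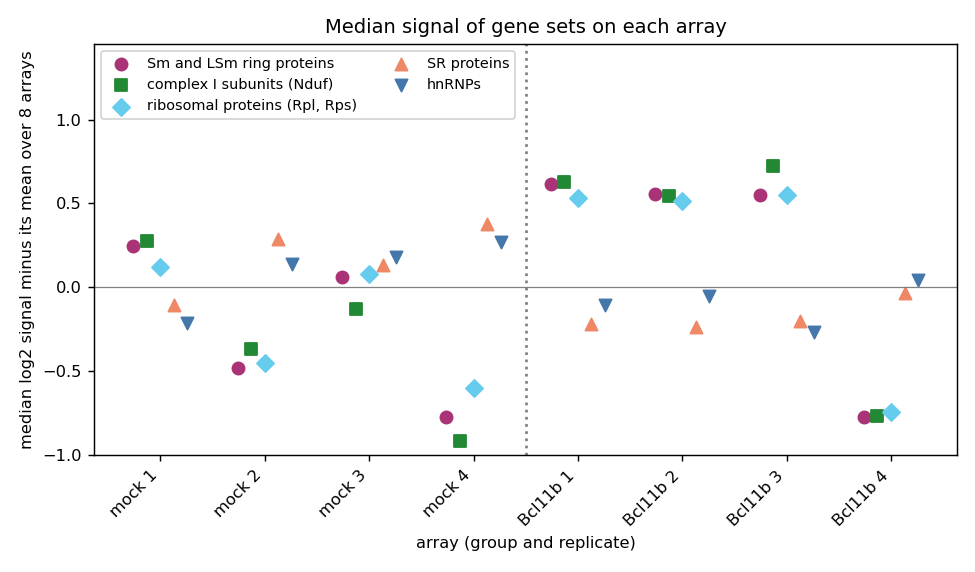
Median log2 signal of 5 gene sets on each array, as the difference from the mean of that median over the 8 arrays; the dotted line separates mock from Bcl11b arrays. The Sm and LSm, Nduf and ribosomal protein medians move together and are lowest on mock replicate 4 and Bcl11b replicate 4, while the SR and hnRNP medians move less and are above their means on mock replicates 2, 3 and 4.

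The PRPF proteins are factors first found as yeast pre-mRNA processing mutants, and many belong to the U4/U6.U5 tri-snRNP or act in its rearrangement. Of 21 detected probes, 1 was higher (background 3.88%) and 1 was lower (background 9.87%) at the unadjusted threshold. Prpf19 (ILMN_2934534), the ubiquitin ligase at the core of the Prp19 complex, read 10.95, 11.26, 10.67 and 10.91 on the mock arrays and 11.34, 11.39, 11.58 and 11.65 on the Bcl11b arrays. All Bcl11b arrays lay above all mock arrays. The means were 10.95 ± 0.24 and 11.49 ± 0.15 (SD, n = 4 arrays each), a difference of 0.54 (SE 0.14, 1.46-fold) with a limma adjusted p of 0.230. Its adjusted p was 0.0860 without mock replicate 2 (difference 0.65, with 480 of all 10918 detected probes past 0.10), again from limma. It was 0.0501 when arrays were scaled by their medians (0.66, with 66 probes past 0.10). In limma fits with a block for the replicate number and with limma-trend it was 0.441 and 0.378. Without normalization the difference was -0.09. The other Prpf19 probes differed by 0.15 (ILMN_2934533, SE 0.24) and 0.06 (ILMN_2934532, SE 0.10), and the latter, the brightest PRPF probe, read 12.75, 12.36, 12.38 and 12.53 on the mock and 12.62, 12.49, 12.49 and 12.66 on the Bcl11b arrays.

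Prpf39 (ILMN_2692799), the counterpart of a yeast U1 snRNP protein, read 8.46, 8.63, 7.88 and 8.98 on the mock and 7.95, 7.93, 7.87 and 7.98 on the Bcl11b arrays. Mock replicate 3 lay among the Bcl11b arrays, and the difference was -0.56 (SE 0.22, adjusted p = 0.461 from limma). It missed the unadjusted threshold when any single array other than mock replicate 3 was left out, with differences between -0.57 and -0.40, and when arrays were scaled by their medians (-0.53). Prpf8, the large protein at the heart of the catalytic core, differed by -0.02 on its bright probe (ILMN_2612369, SE 0.14) and by 0.94 on a dim one (ILMN_2637661, SE 0.71), which read 4.54 on mock replicate 1 and between 6.80 and 8.17 elsewhere. Prpf3 and Prpf31, proteins of the U4/U6 particle, differed by -0.19 to 0.22 over 6 probes, none past the threshold.

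By family, the snRNP and LSm probes had the highest median differences on all 8 arrays (0.36 and 0.38) along with the widest spread, with median pooled SDs of 0.47 and 0.57. Without Bcl11b replicate 4 these medians were 0.60 and 0.61, whereas those of the SR proteins and hnRNPs were -0.20 and -0.12. The medians of the PRPF proteins (0.04), SF3 subunits (0.10) and U2AF relatives (0.15) became 0.01, 0.00 and 0.42. When arrays were scaled by their medians, the SR and hnRNP medians were above 0, so only the snRNP, LSm, SF3, PRPF and U2AF medians kept their sign under that scaling. Without normalization every family median was below 0, between -0.65 (SR proteins) and -0.19 (snRNP proteins), and above the median of all detected probes, which was -0.68.

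**Figure D4:**
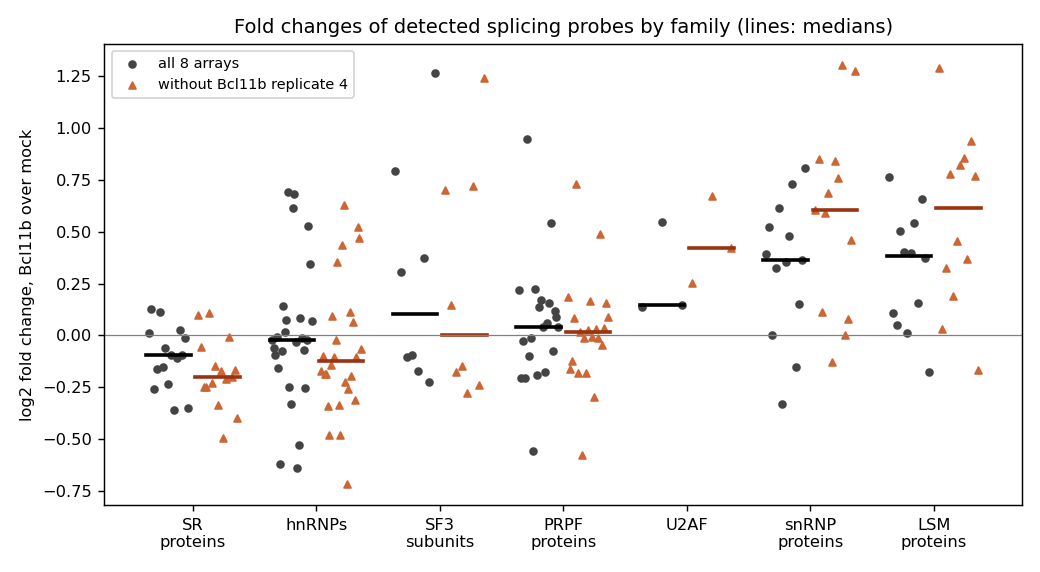
Log2 fold change (Bcl11b over mock) of each of the 98 detected splicing probes by family, with all 8 arrays (black circles) and without Bcl11b replicate 4 (orange triangles); horizontal lines are family medians. The snRNP and LSm medians are 0.36 and 0.38 with all arrays and 0.60 and 0.61 without that array, and the SR and hnRNP medians are -0.09 and -0.02 against -0.20 and -0.12.

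More than 1 detected probe was available for 23 symbols, and in 10 of them the probes differed in direction (Hnrpa2b1, Hnrpk, Lsm6, Prpf3, Prpf38a, Prpf40b, Prpf8, Sf3b4, Sfrs2 and Snrpa). Direction here is the sign alone. Several of the differences were well under 1 SE, as for Hnrpk (ILMN_1245987, -0.01, SE 0.33) and Prpf40b (ILMN_2659200, -0.01, SE 0.17). The share of such symbols over the whole array was not counted. In Sf3b4 and Snrpa 1 of the probes passed the unadjusted threshold. Probe sequences were not among the files used here, so isoforms, or reads of a near-identical gene such as Snrpn for Snrpb, could not be separated. With 1 probe per symbol, the one with the highest mean signal, 6 of 76 symbols passed the unadjusted threshold. These 6 were not the detected set described above. They include Hnrpd and Sfrs8, which were detected on no array. They leave out Hnrpdl, Prpf19, Snrpa and Sfrs5, whose brightest probes did not pass. Over all probes of the array, counted by probe and not by symbol, 9.02% passed it.

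A total of 28 splicing probes were detected on no array, and 13 symbols had no detected probe. These included Snrpe, Snrpb2 and Sf3b1, which encode an Sm ring protein, the U2B″ protein and the largest SF3b subunit, and also Hnrpa3, Hnrpd, Hnrpr, Lsm1, Lsm11, Prpf4b, Sfrs8, Sfrs10 and Sfrs15. Since growing cells need several of these proteins, a probe that was not detected does not show that its gene was silent. Hnrph2 (ILMN_2680808) was detected on 1 mock array and no Bcl11b array, and its level on the Bcl11b arrays is only bounded by the background, so no fold change is given.

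The same threshold was applied to 101 splicing genes on the array that the symbol rule does not take, such as SR kinases, splicing regulators, helicases and snRNP assembly factors, each by its brightest probe. Of the 86 detected in both groups, 5 were higher (background 3.88%) and 3 were lower (background 9.87%), with a median difference of -0.01, and none of the 86 passed the adjusted threshold. The higher genes were Clns1a (pICln, which holds Sm proteins before ring assembly, by 0.41, adjusted p = 0.289 from limma), Gemin6 (a subunit of the SMN complex that assembles the ring, by 0.43), Sart1 (a tri-snRNP protein, by 0.49), Tra2a (an SR-like splicing activator, by 0.49) and Zfp162 (Sf1, which first binds the branch site, by 0.71). Clns1a read 11.45, 11.51, 11.10 and 11.19 on the mock and 11.70, 11.64, 11.93 and 11.61 on the Bcl11b arrays, so its groups did not overlap, although Bcl11b replicate 4 was the lowest of the Bcl11b arrays. The lower genes were Tia1 (a promoter of weak 5′ splice sites, by -0.49, adjusted p = 0.226), Clk2 (a kinase of SR proteins, by -0.55, adjusted p = 0.261) and Bat1a (UAP56, a helicase of splicing and mRNA export, by -0.36, adjusted p = 0.322), all from limma. Clk2 read 9.84, 9.81, 10.27 and 10.37 on the mock and 9.54, 9.55, 9.38 and 9.62 on the Bcl11b arrays, with no overlap. Without Bcl11b replicate 4, 7 of the 86 were higher (background 7.57%) and 4 were lower (background 11%). Of the 5 higher genes named, Clns1a and Gemin6 were among these 7, whereas Tra2a (0.36), Sart1 (0.43) and Zfp162 (0.58) missed the threshold there. The other 5 of the 7 were Rnpc2 (1.22), Nhp2l1 (1.03), Ppie (0.68), Dhx9 (0.68) and Khdrbs3 (0.37), and the lower genes were the same with Mbnl2 (-0.38) added. The probes of A2bp1, Elavl4 and Xab2 were also past the unadjusted threshold but were detected on no array.

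**Figure D5:**
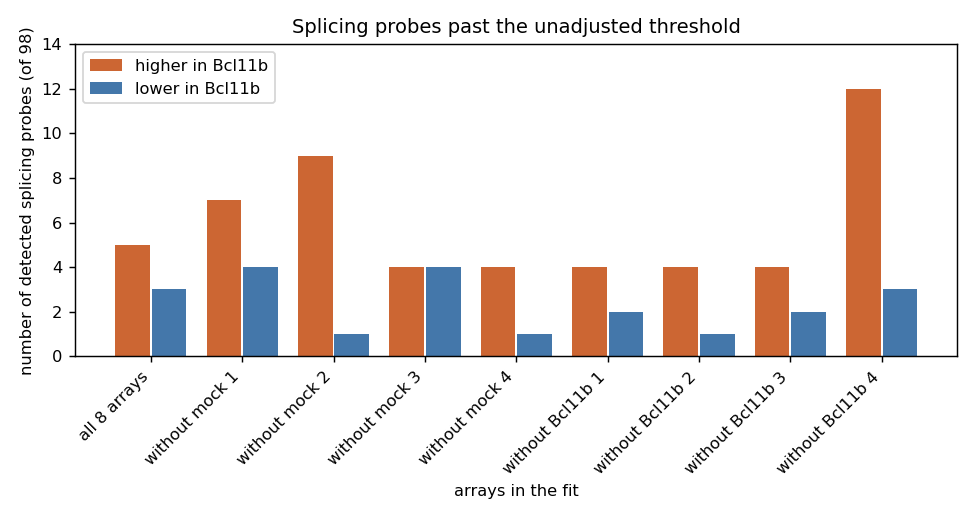
Number of the 98 detected splicing probes past the unadjusted threshold (unadjusted p under 0.05 and a difference of at least 0.32), higher (orange) and lower (blue) in Bcl11b cells, with all 8 arrays and with each array left out. The count of higher probes is 5 with all arrays, 9 without mock replicate 2 and 12 without Bcl11b replicate 4, and between 4 and 7 otherwise.

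With other single arrays left out the number of higher splicing probes lay between 4 and 7 (background 2.45% to 3.72%), and it was 9 without mock replicate 2 (background 7.14%). The number of lower probes lay between 1 and 4 (background 6.46% to 13%). At the adjusted threshold, leaving out mock replicate 2 gave 3 of the 98 detected splicing probes, for Sf3b4 (1.59), Prpf19 (0.65) and Lsm6 (ILMN_3000108, -0.26). In that fit 480 of all 10918 detected probes passed. Leaving out mock replicate 3 gave 1 splicing probe, for Hnrpd, which was detected on no array, where 52 of the 10918 detected probes passed. Hnrpdl, Hnrph3, Prpf19, Sf3b4 and Snrpa (ILMN_1247582) were past the unadjusted threshold with each of the 8 arrays left out.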

How the data were processed

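Each of the 8 samples was 1 Illumina MouseRef-8 v2 array. The authors deposited 1 background-subtracted intensity per probe, the average over its beads, not normalized between arrays, with a detection p-value against negative control beads. The scanner software was GenomeStudio, per the submitters' processing notes, and the study's methods name quantile normalization and limma. From the deposited intensity values, log2 signals were computed after quantile normalization and a floor of 1, which 31.9% of the signals of each array reached. The authors' detection p-values decided which probes were detected (limit 0.01). All 25697 probes were fitted with lmFit and eBayes of limma 3.58.1 in R 4.3.3, without covariates, with Benjamini-Hochberg adjustment over all probes. Thresholds were an adjusted p of 0.10, and an unadjusted p of 0.05 with at least 1.25-fold change. Precision is limited by the small number of arrays. The fit was tested on simulated data.

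The splicing genes, the gene lists and the tests were chosen with earlier results of these data known. Named probes were those past the adjusted threshold, those detected in both groups and past the unadjusted one, the brightest probe of each family, and probes of 1 gene with opposite directions of which 1 was under an unadjusted p of 0.05. From the other splicing genes, up to 5 per direction were named. The remaining genes in the text were chosen after their values were seen. Groups and replicate numbers came from the sample labels.

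Alternatives were scaling by the array median, no normalization, neqc, an offset of 16, a detection filter on 4 arrays, arrayWeights, a fit blocked on replicate number, limma-trend with robust variance moderation, the brightest probe of each symbol, and each array left out. The name of 1 splicing gene on the array is not reported here.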

Additional observations from a re-analysis of the deposited data

Results flagged for a closer look

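Among 40 items (the named splicing probes, the Sm and LSm ring probes and the family medians), giving 80 groups of 4 arrays, 18 had an array far from the other 3. Chance gives about 1 in 20 for independent groups picked without regard to their values. Here the ring was set apart after its values had been seen, many named probes were picked by their values, and the probes share the arrays. The count therefore cannot be set against that rate. Of the 18, 17 were Bcl11b replicate 4. The cause was not tested.

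Bcl11b replicate 4 was far below the other Bcl11b arrays in log2 signal for the LSm genes Lsm2 (ILMN_2741726, 10.31), Lsm3 (10.17), Lsm4 (12.51), Lsm5 (11.03), Lsm7 (10.94) and Lsm8 (11.16). It was far below them for the Sm genes Snrpb (ILMN_1223667, 10.58), Snrpd1 (ILMN_1225361, 10.61), Snrpd2 (10.77), Snrpd3 (12.65) and Snrpg (10.29) too, and for U2af1-rs2 (10.11). The median log2 signals of the LSm (10.24), snRNP (10.77), SF3 (11.96) and ring (10.77) probes were low on the same array. The SR protein gene Sfrs2 was far above the other Bcl11b arrays there (14.07). The remaining case was Bcl11b replicate 3, low for the probe of Sf3b4 that did not pass the threshold (ILMN_3051392, 7.87).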

How the results depend on the processing

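Without normalization the median of all detected probes was -0.68 (-0.49 over every probe), and 0.11% of them were higher and 48.4% lower at the unadjusted threshold. There 37 splicing probes passed it against 10, of the 98 detected ones 1 was higher and 32 were lower, 38 other splicing genes passed against 8, and the median of the detected splicing probes was -0.54. Scaling by the array median gave 1 splicing probe past the adjusted threshold, where 66 of all 10918 detected probes passed. It gave 16 past the unadjusted one and 16 other splicing genes. Among detected splicing probes 14 were higher (background 7.56%) and 1 was lower (background 6.43%). The arrayWeights fit gave 2 past the adjusted threshold (Hnrpdl, adjusted p = 0.0390, and Sfrs5, 0.0960, from limma), where 462 of all 10918 detected probes passed. It gave 23 past the unadjusted one, 15 higher (background 8.88%) and 6 lower (background 13.5%) among detected probes, and 13 other splicing genes. Its lowest weight fell on Bcl11b replicate 4 (0.414). Of the splicing probes, Hnrpdl alone passed the adjusted threshold under neqc (280 of all 10918 detected probes passed) and under the detection filter (171 of 10587). Taking 1 probe per symbol gave 6 past the unadjusted threshold, with the undetected Hnrpd and Sfrs8 among them and without Hnrpdl, Prpf19, Snrpa and Sfrs5. With single arrays left out, the counts were 0 to 3 at the adjusted threshold, where 33 to 480 of the 10918 detected probes passed. They were 6 to 16 at the unadjusted threshold. Among detected probes 4 to 12 were higher (background 2.45% to 7.57%) and 1 to 4 lower (background 6.46% to 13%), other splicing genes numbered 3 to 17, and the median was 0.01 to 0.07.

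In a fit with a block for the replicate number, 11 detected splicing probes were higher against 5 (background 5.31%), 2 were lower (background 8.12%), and none passed the adjusted threshold. The labels do not say whether equal numbers mark paired sets. Deviations from the group means correlated at 0.60, -0.61, 0.13 and 0.64 for replicates 1 to 4. Mock replicates 1 and 4 correlated best with the Bcl11b replicate of the same number, mock replicate 2 with Bcl11b replicate 4 and mock replicate 3 with Bcl11b replicate 1. With so few arrays these correlations cannot settle whether the sets were paired. Prpf39 missed the unadjusted threshold with the block.

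Signs turned for Sf3b2 (0.20) and Sfrs2 (0.45) with scaling by the median, and for Snrpa ILMN_2667509 with arrayWeights (0.032). Without normalization they turned for Prpf19 ILMN_2934534 (-0.093) and ILMN_2934532 (-0.44), Hnrph3 (-0.21), Snrpa ILMN_1247582 (-0.049), Snrpa1 (-0.19), Lsm4 (-0.23) and U2af1-rs2 (-0.56). With single arrays left out, Lsm4 ranged from -0.0037 (without mock replicate 4) to 0.37, Sf3b2 from -0.26 to 0.0041 (without mock replicate 4), and Snrpa ILMN_2667509 from -0.25 to 0.0031 (without Bcl11b replicate 4). The cause of these changes was not tested. Dim probes near the background limit what can be seen, since 28 of the 127 splicing probes were detected on no array.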
